A study of Drosophila melanogaster with 8 samples.

Results

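Heads of late Drosophila melanogaster pupae from 2 loss-of-function genotypes of TBPH were compared with each other. TBPH encodes the fly counterpart of TDP-43. The comparison used 4 of the 8 libraries in the study, chosen by genotype: 2 libraries labelled dTDP-43-delta142/Df(2R)106, in which the deletion allele delta142 stands over a chromosomal deficiency, and 2 labelled dTDP-43-delta23/delta142, in which it stands over the deletion allele delta23. They are called here the deficiency genotype and the 2-deletion genotype. Both genotypes thus carry delta142 on 1 chromosome and differ in the other. Wild-type and gain-of-function libraries were not used, apart from 1 alternative fit that took the spread from all libraries. Each library held total RNA of 150 pooled heads, aged 73 to 90 h after puparium formation, from which ribosomal RNA was removed before SOLiD sequencing. Separate crosses are not stated for the replicates of a genotype. The p-values therefore rest on the spread among the 4 libraries, and that spread may be technical. The labels also do not say which part of TBPH each allele removes, or which genes the deficiency spans.

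TDP-43 is an RNA-binding protein of the nucleus that takes part in splicing, transport and stability of RNA, and it is found in aggregates in human motor neuron disease. Different combinations of alleles are commonly compared in fly genetics because an effect of the shared locus should appear in both, while an effect of another site on 1 chromosome need not. In late pupae the adult head is being finished: muscles and photoreceptors mature, the adult cuticle is laid down and darkened, and steroid hormone levels change over hours.

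The libraries held 858067 and 929745 counts in the deficiency genotype and 1160738 and 1302855 in the 2-deletion genotype, and 3 counts corresponded to 2.34 to 3.62 CPM, the count scaled to library size. Spearman correlations of log2 CPM were 0.929 between the deficiency replicates, 0.951 between the 2-deletion replicates and 0.906 to 0.929 between genotypes. The genotypes separated on the first principal component, with 48.1% of the variance. On it the deficiency replicates lay at 17.9 and 27.4 and the 2-deletion replicates at -31.2 and -14.1. The second component had 33.6% and separated the deficiency replicates, at 30.8 and -24.2, while the 2-deletion replicates lay at -1.05 and -5.55. The median absolute log2 difference was 0.309 between the deficiency replicates and 0.236 between the 2-deletion replicates, and the median absolute log2 fold between genotypes was 0.261.

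No gene passed the test between the genotypes at an adjusted p of 0.05 (quasi-likelihood test of edgeR, Benjamini-Hochberg adjusted), so 0% of the 8539 genes tested were called in either direction. The smallest adjusted p was 0.169. At an unadjusted p under 0.05 there were 460 genes higher in the deficiency genotype (5.39% of those tested) and 535 lower (6.27%). Both deficiency libraries lay above both 2-deletion libraries in 1807 genes (21.2%) and below them in 1883 (22.1%). The median log2 fold, deficiency over 2-deletion as in every fold below, was 0.01, with 51.6% of genes positive and the 5th and 95th percentiles at -0.91 and 0.78. DESeq2 called 10 genes higher and 5 lower at the same threshold (0.0902% and 0.0451% of the genes it tested), and edgeR with the replicate number as a block called 13 higher and 6 lower (0.152% and 0.0703%). The labels pair no libraries by replicate number, so that block has no stated basis. Each gene group below is therefore given by its values in the 4 libraries and by its counts, read against these background shares. Apart from TBPH, the genes named were chosen after their values were seen.

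TBPH itself was at 49.5 and 30.9 CPM in the deficiency libraries and at 40.2 and 44.4 CPM in the 2-deletion libraries. The deficiency values spanned the 2-deletion values. Its counts were 41 and 28 against 47 and 57, and its log2 fold was -0.08 (95% interval -0.75 to 0.59, edgeR adjusted p = 0.94). Without the second deficiency library the log2 fold was 0.22, and without the second 2-deletion library it was 0.01. The counts therefore did not separate the genotypes at the targeted gene. They check the alleles only for sequence that lies within the deleted parts.

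A deficiency leaves 1 copy of each gene it spans, so genes beside TBPH were examined in gene order on chromosome arm 2R. Of the 40 annotated genes on each side, 68 had a symbol in the files and 43 were tested. Their median log2 fold was -0.04, beside 0.02 over the 1709 tested genes of the arm, with 18 positive and 25 negative. The 12 tested genes within 10 places of TBPH had a median of -0.11. For 31 of the 43 the 95% interval lay wholly above -1, the value of a 2-fold fall, and for 11 the interval held it. The remaining neighbour, CG5539, lies 20 genes from TBPH and was at 3.62 and 1.10 CPM against 15.4 and 20.3, a log2 fold of -2.89 (interval -4.32 to -1.46, edgeR adjusted p = 0.21). Its counts were 3 and 1 against 18 and 26.

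Closest to TBPH among the low values was bgcn, 2 genes away, a partner of the germline differentiation factor bam. It was at 8.46 and 2.20 CPM against 13.7 and 16.4, with no overlap of the genotypes and a log2 fold of -1.51 (interval -2.86 to -0.16, edgeR adjusted p = 0.37). Its counts were 7 and 2 against 16 and 21, and like CG5539 it passed the filter on low counts only through the 2-deletion libraries. Ssrp, which encodes a subunit of the FACT histone chaperone and lies 19 genes away, was at 37.5 and 25.4 CPM against 59.0 and 46.0. eIF6, a factor of 60S ribosome assembly, was at 10.9 and 6.61 CPM against 18 and 13.3. The gene gbb, a BMP ligand gene 3 places from TBPH, overlapped at 25.4 and 38.6 CPM against 44.5 and 37.4. CG4585, the next gene on the other side, was higher in the deficiency libraries, at 32.6 and 29.8 CPM against 22.2 and 24.9. On the side of bgcn, the 4 tested genes from 2 to 6 places away (bgcn, gbb, eIF6 and ytr) had negative folds, and the next pair, CG5554 and usnp, had folds of 0.06 and 0.06. On the side of CG4585, the 5 tested genes up to 6 places away ran from -0.25 to 0.50. Ca-P60A, the sarcoplasmic calcium pump gene 20 places away, was at 761 and 873 CPM against 517 and 550, and it is also a member of the muscle list described below. Of the 43 neighbours, 4 had an unadjusted p under 0.05, and these were CG5539, bgcn, Ssrp and Ca-P60A.

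**Figure D1:**
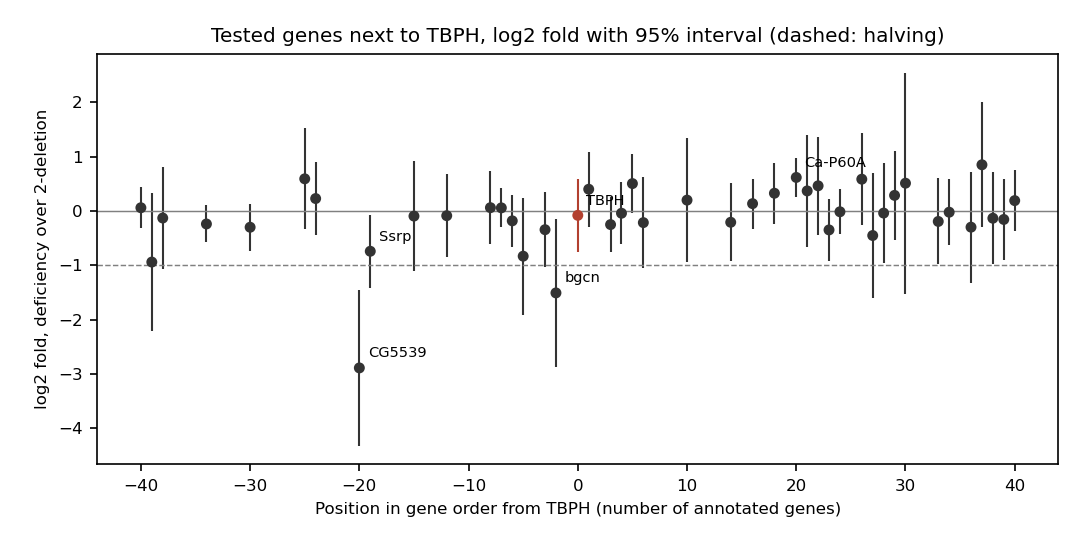
Points are log2 folds (deficiency over 2-deletion) of TBPH and its 43 tested neighbours against their place in gene order, and bars are 95% intervals; the dashed line at -1 marks a 2-fold fall. Most intervals lie above the dashed line. The whole interval of CG5539 (-2.89) lies below it, while the point of bgcn (-1.51) lies below it with an interval that holds it.

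Stress-inducible heat shock genes were lower in the deficiency genotype. All 5 tested members of that list lay below the 2-deletion values in both deficiency libraries, with a median log2 fold of -1.54, and all 5 had an unadjusted p under 0.05. The list holds 10 genes in the files, and 5 did not pass the filter on low counts. Summed over the 5, the level was 2346 and 3455 CPM against 6926 and 6780. Most of that sum in each library was Hsromega, a noncoding RNA gene described below, and not chaperone mRNA. Leaving out 1 library gave medians from -2.02 to -1.18. Heat shock proteins are chaperones that bind unfolded proteins, and their transcription is driven by the heat shock factor.

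Hsp68, an Hsp70-family chaperone gene, was at 187 and 360 CPM in the deficiency libraries and at 1377 and 1104 in the 2-deletion libraries. The lowest 2-deletion library was thus far above both deficiency libraries, and the log2 fold was -2.18 (SE 0.32, edgeR adjusted p = 0.21). DnaJ-1, which encodes an Hsp40 cochaperone, was at 167 and 295 CPM against 666 and 682, a log2 fold of -1.54 (SE 0.26). The cochaperone gene stv, whose product is a BAG-family partner of Hsp70, was at 100 and 170 CPM against 373 and 290. Each of these was lowest in the first deficiency library. DESeq2 called Hsp68 and DnaJ-1 lower.

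Hsromega, a noncoding RNA gene induced by heat that organises nuclear stress bodies, was at 1891 and 2628 CPM against 4491 and 4690, a log2 fold of -1.02 (SE 0.21). Hsp70Bc had 2 counts over the deficiency libraries and 40 over the 2-deletion libraries. It passed the filter on low counts only through the 2-deletion libraries. The ratio was 14.2 in favour of the 2-deletion genotype, with a 95% exact counting interval of 3.67 to 121. Hsp70Bc has near-identical copies, and the handling of reads with several matches is not known, so its own level is uncertain.

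The heat shock factor gene Hsf was at 111 and 107 CPM against 243 and 244. Both replicates of each genotype were close together, and the log2 fold was -1.16 (SE 0.16, edgeR adjusted p = 0.17). Hsp83, the fly Hsp90 gene, was at 1171 and 1297 CPM against 2428 and 2121, a log2 fold of -0.88 (SE 0.18). Hsf and Hsp83 belong to a list of 24 general chaperone and cofactor genes, of which 11 lay below in both deficiency libraries and 1 above, with a median of -0.18. Without 1 library that median ran from -0.30 to -0.06. Hsc70Cb, Hsc70-2, Hsp60C and the testis-expressed Hsp60B, further chaperone genes of this list, had log2 folds of -0.49, -0.78, -0.59 and -1.19. Hsc70-4, the main constitutive Hsp70-family gene, was at 1624 and 1939 CPM against 1838 and 1897 and had a log2 fold of -0.07. Of the list, 6 genes had an unadjusted p under 0.05, each lower in the deficiency genotype.

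Small heat shock genes were mixed. Of the 7 tested (of 12 in the files), 4 lay below in both deficiency libraries, 1 lay above and 2 overlapped, with a median of -0.32. Hsp26 was at 552 and 541 CPM against 1087 and 1280, a log2 fold of -1.11 (SE 0.17, edgeR adjusted p = 0.17). It passed the test once small RNA genes were left out (edgeR adjusted p = 0.0381). Hsp67Bc was at 87.0 and 100 CPM against 156 and 135, and Hsp27 at 620 and 601 against 865 and 775. Hsp67Ba was at 216 and 215 CPM against 260 and 277. In contrast, CG14207, a gene of the small heat shock family, was higher in the deficiency genotype, at 178 and 234 CPM against 121 and 161. Hsp23 overlapped, at 1261 and 1787 CPM against 1897 and 1648. Chaperones of the endoplasmic reticulum had a median of -0.05 over 13 genes, with 2 above and 5 below.

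**Figure D2:**
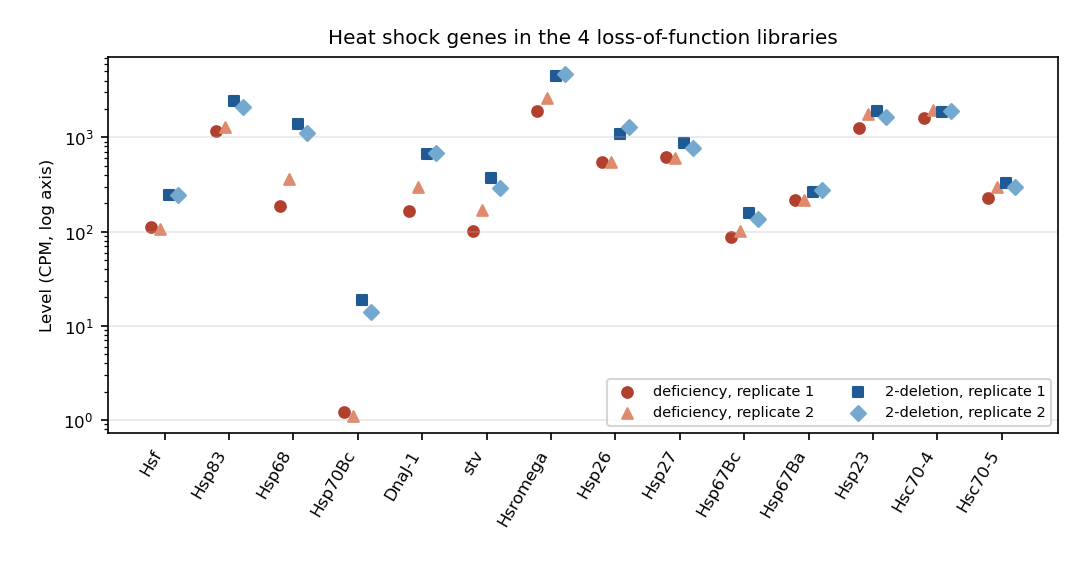
Each point is the level of a heat shock gene in 1 library, in CPM on a log axis, with a symbol for each of the 4 libraries. Hsf, Hsp83, Hsp68, Hsp70Bc, DnaJ-1, stv, Hsromega and Hsp26 separate the genotypes, while Hsp23, Hsc70-4 and Hsc70-5 do not.

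Muscle genes were higher in the deficiency genotype. All 35 genes of this list were tested. Their median log2 fold was 0.71, with 33 positive, 29 above the 2-deletion values in both deficiency libraries and 2 below. At an unadjusted p under 0.05, 24 were higher and 1 was lower. The second deficiency library was above the first by a median of 0.42 on the log2 scale in these genes, while the 2-deletion replicates differed by 0.08. The median fold was 0.49 without the second deficiency library and 0.90 without the first. In whole heads, fewer cells of a type and less RNA per cell cannot be told apart.

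Mhc, the muscle myosin heavy chain gene, was at 3826 and 5609 CPM against 2594 and 2553, a log2 fold of 0.87 (SE 0.22, edgeR adjusted p = 0.25). Mlc2, a myosin light chain gene, was at 1759 and 2833 CPM against 1245 and 1186. Thin filament genes were also highest in the second deficiency library: Tm2, a tropomyosin gene, was at 256 and 437 CPM against 147 and 168. The troponin I gene wupA was at 329 and 516 CPM against 147 and 214, and the troponin T gene up was at 853 and 1042 against 496 and 624. TpnC41C, a troponin C gene, had the smallest p of these, at 150 and 243 CPM against 84.7 and 85.7 (log2 fold 1.20, SE 0.24, edgeR adjusted p = 0.21). wupA (edgeR adjusted p = 0.23) was called higher with the replicate block but not by DESeq2. Of the 2 negative genes, the 1 with an unadjusted p under 0.05 was Mef2, which encodes the transcription factor of muscle differentiation, at 128 and 133 CPM against 180 and 182 (log2 fold -0.47, SE 0.16).

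Photoreceptor genes were higher in most cases. Of 34 in the files, 22 were tested, with a median log2 fold of 0.56. Both deficiency libraries lay above both 2-deletion libraries in 17 of the 22 and below in 1, and 8 had an unadjusted p under 0.05, each higher. The median was 0.19 without the second deficiency library and 0.29 with a minimum count of 50. ninaE, which encodes the main rhodopsin of the outer photoreceptors, was at 27.8 and 79.4 CPM against 9.41 and 7.02, a log2 fold of 2.71 (SE 0.57, edgeR adjusted p = 0.22), and DESeq2 called it higher. ninaE passed the filter on low counts only through the deficiency libraries, so the filter favoured a positive fold for it. Arr2, an arrestin gene, was at 19.3 and 81.6 CPM against 12 and 10.1. The light-gated channel gene trp was at 141 and 269 CPM against 75.3 and 104, and ninaC, the rhabdomere myosin gene, was at 134 and 282 against 84.7 and 115. In ninaE, Arr2, trp and ninaC the second deficiency library was the highest of the 4. That was not so for inaC, the eye protein kinase C gene, at 59.2 and 48.5 CPM against 22.2 and 34.3. Among eye pigment genes, the list had a median of 0.11 over 20 genes (0.01 without the first deficiency library and 0.19 without the second). Its member sepia (se), an enzyme gene of red pteridine pigment, was at 23 and 40.8 CPM against 0.855 and 6.24. sepia passed the filter on low counts only through the deficiency libraries.

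Neuronal genes were higher to a smaller extent. Of 35 tested genes of neurons and synapses, 18 lay above in both deficiency libraries and 2 below, with a median of 0.27 and 8 higher at an unadjusted p under 0.05. Ion channel genes had a median of 0.33 over 35 tested, with 22 above, none below and 6 higher at that p, and 0.52 without the second 2-deletion library. Gad1, which encodes glutamate decarboxylase, the enzyme that makes GABA, was at 39.9 and 77.2 CPM against 18.8 and 19.5, a log2 fold of 1.61 (SE 0.36). VAChT, the vesicular acetylcholine transporter gene, was at 118 and 125 CPM against 70.1 and 80.3, and complexin (cpx), a regulator of vesicle fusion, at 303 and 360 against 195 and 228. The sodium channel gene para was at 99.1 and 101 CPM against 60.7 and 63.1, and the calcium-activated potassium channel gene slo was at 179 and 208 against 133 and 136. Replicates of para lay within a few CPM of each other in both genotypes. Glial genes had a median of 0.17 over 23, with 5 above and 5 below, and 0.10 without the first library of either genotype.

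Neuropeptide precursor genes went both ways, with 5 of 12 tested above, 5 below and a median of 0.01. Nplp2 was the lowest of them, at 21.7 and 52.9 CPM against 124 and 211 (log2 fold -2.15, SE 0.47, edgeR adjusted p = 0.26), and was called lower by DESeq2 and with the replicate block. amon, which encodes the prohormone convertase that cuts precursors into peptides, was at 61.6 and 51.8 CPM against 25.7 and 35.9. Of 18 genes studied elsewhere in connection with TDP-43 in flies, 9 were positive and 9 negative, with a median of -0.01. Their log2 folds ran from -0.41 to 1.86, and the highest was that of ple, given with the tanning genes below. Map205, a microtubule-associated protein gene, was at 704 and 594 CPM against 746 and 649. Arc1, the gene of a capsid-forming synaptic protein, was at 639 and 978 CPM against 883 and 928, and the ecdysone receptor gene EcR was at 378 and 368 against 467 and 444. The log2 folds of Map205, Arc1 and EcR were -0.10, -0.16 and -0.29.

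Genes of the Eig71E cluster, a run of small secreted-protein genes induced by the steroid hormone ecdysone, were the most shifted of the hormone-related groups. All 11 were tested and positive, with a median log2 fold of 1.78, and 9 lay above in both deficiency libraries. Within the deficiency genotype the median log2 difference, second library over first, was -1.12, and without the first library the median fold was 0.98. Eig71Eb was at 437 and 237 CPM against 71.9 and 101 (log2 fold 1.96, SE 0.34, edgeR adjusted p = 0.21). Eig71Ea was at 422 and 185 CPM against 42.8 and 99, and Eig71Eg at 371 and 190 against 47.0 and 82.6. DESeq2 called these 3 higher. Eig71Eh and Eig71Ej overlapped between genotypes, with Eig71Ej at 327 and 150 CPM against 179 and 85.7. Eig71Ek, at 327 and 154 CPM against 153 and 71.7 (edgeR adjusted p = 0.59), was called higher with the replicate block but not by DESeq2. Eig71Ee was at 15.7 and 9.92 CPM against 0.855 and 5.46. It passed the filter on low counts only through the deficiency libraries, so the filter favoured a positive fold for it. The cluster's genes resemble each other, so reads may be shared among them. Genes of the general ecdysone response had a median of -0.06 over 25, with 3 above and 5 below, and ecdysteroid enzymes a median of 0.06 over 5.

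Cuticle genes differed as much between the deficiency replicates as between genotypes. Cuticle protein genes had a median of 0.40 over 61 tested (of 131 in the files), with 23 above, 4 below and 12 higher and 1 lower at an unadjusted p under 0.05. The deficiency replicates differed by a median of 0.46, and without the second the median fold was 0.05. Cpr47Ec was at 29 and 27.6 CPM against 8.55 and 8.57, a log2 fold of 1.71 (SE 0.38, edgeR adjusted p = 0.21), and Cpr49Ae at 652 and 570 against 309 and 415. Cpr47Ec passed the filter on low counts only through the deficiency libraries. Cpr100A was lower, at 352 and 459 CPM against 714 and 493. Of 17 tanning genes, 3 lay above and 1 below, and the second deficiency library was above the first by a median of 0.95; their median fold was 0.55, and -0.06 without that library. ple, which encodes tyrosine hydroxylase, the enzyme that starts the catecholamine pathway of tanning, was at 710 and 1414 CPM against 143 and 443. Its edgeR adjusted p was 0.54, and the replicate block called it higher while DESeq2 did not. Ddc, the next enzyme of that pathway, overlapped between genotypes, at 45.9 and 141 CPM against 39.3 and 88.1.

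Osiris genes, which encode membrane proteins expressed while cuticle is formed, had a median of -0.04 over 19, with 4 above, 2 below and 13 overlapping. That median was -1.66 without the first deficiency library and 0.38 without the second. The median log2 difference between the deficiency replicates, second over first, was -2.03, the largest such difference among the lists of at least 10 tested genes. Their summed level was 5170 and 1305 CPM against 3599 and 2679. Osi22 was at 169 and 30.9 CPM against 187 and 214, so that 1 library stood apart. Genes of the apical extracellular matrix and trichomes showed the same order, with a median of -0.94 for the second deficiency library over the first, and their median fold of -0.28 was -0.82 without the first and 0.01 without the second. dusky (dy) was at 178 and 41.9 CPM against 184 and 183, and shavenoid (sha) at 214 and 67.2 against 186 and 253. ovo, the transcription factor gene that directs trichome formation, was at 146 and 147 CPM against 201 and 214. The labels give the 4 libraries 1 range of ages, and the part of age or of the second deficiency library in the values above was not tested.

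**Figure D3:**
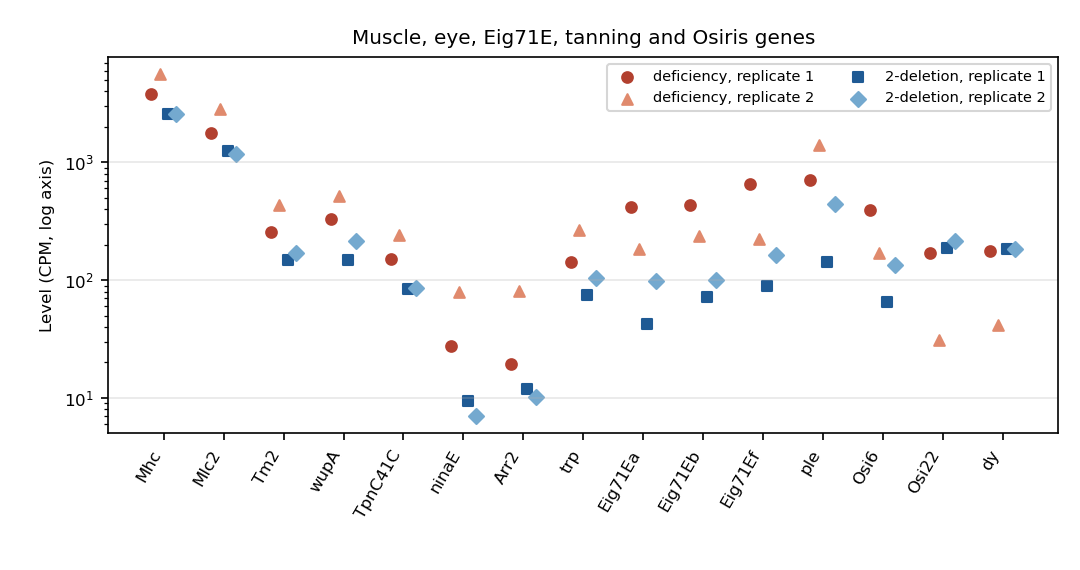
Each point is the level of a gene in 1 library, in CPM on a log axis, for muscle (Mhc to TpnC41C), eye (ninaE to trp), Eig71E, tanning (ple), Osiris and apical matrix (dy) genes. The second deficiency library is the highest in the muscle and eye genes shown and the lowest in Osi22 and dy.

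**Figure D4:**
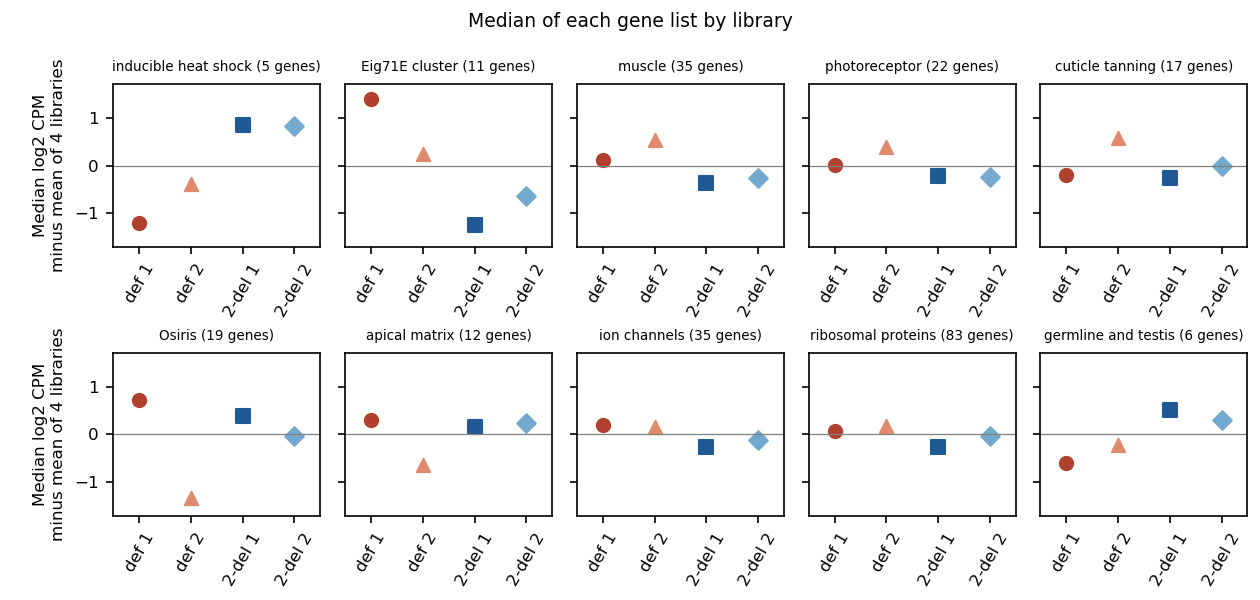
For each of 10 gene lists, points show the median over tested members of log2 CPM minus that gene's mean over the 4 libraries, by library (def, deficiency; 2-del, 2-deletion). Heat shock genes separate the genotypes with the 2-deletion libraries on top and muscle genes with the deficiency libraries on top, while the Osiris median of the second deficiency library, at -1.32, lies apart from the other 3.

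Genes of energy metabolism and of the cytosolic ribosome were slightly higher in the deficiency genotype. Nuclear genes of oxidative phosphorylation had a median log2 fold of 0.39 over 75 tested, with 40 above, 7 below and 21 higher and 1 lower at an unadjusted p under 0.05. Glycolysis and the citric acid cycle had a median of 0.29 over 30, with 21 above and none below. CG12400, a gene of respiratory complex I, was at 31.4 and 28.7 CPM against 9.41 and 12.5, and citrate synthase (kdn) was at 422 and 440 against 298 and 309. Genes of the cytosolic ribosome numbered 83 and had a median of 0.27, with 50 above, 2 below and 21 higher at that p, and that median was 0.18 and 0.42 without the first and the second 2-deletion library. RpL41 was at 875 and 885 CPM against 529 and 585, a log2 fold of 0.66 (SE 0.16). Those of the mitochondrial ribosome numbered 38 and had a median of 0.28, with 11 above, 2 below and 2 higher at that p, a share near the background, and 0.17 without either the second deficiency or the first 2-deletion library. mRpL40 was at 18.1 and 19.8 CPM against 4.28 and 1.56, and it passed the filter on low counts only through the deficiency libraries.

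Lipid genes had a median of -0.09 over 18 tested, with 2 above and 5 below, and the 5 with an unadjusted p under 0.05 were lower in the deficiency genotype. Without the first and the second deficiency library the median was -0.03 and -0.35. They were genes of fatty acid synthesis and of lipid droplets. CG3523, which encodes a fatty acid synthase, was at 214 and 254 CPM against 431 and 445 (log2 fold -0.91, SE 0.16, edgeR adjusted p = 0.21). The acetyl-CoA carboxylase gene CG11198 was at 176 and 172 CPM against 248 and 239, and the desaturase gene desat1 at 133 and 146 against 197 and 232. The lipase gene brummer (bmm) was at 53.2 and 48.5 CPM against 101 and 96.7, and Lsd-2, which encodes a droplet-coating protein, at 416 and 413 against 584 and 586. Replicates of bmm, Lsd-2 and CG11198 lay close together in both genotypes. Pepck, the gluconeogenic enzyme gene, was at 1504 and 1471 CPM against 2062 and 2221. Among storage protein genes of the fat body, Fbp1, the receptor for larval serum protein, was at 19070 and 27521 CPM against 11414 and 13630, while Lsp1beta was at 1623 and 3530 against 3765 and 3598. That list had 4 of 8 above and 1 below.

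The Turandot genes encode secreted proteins induced by stress, and 3 of 8 were tested. TotA was at 114 and 291 CPM against 60.7 and 42.1, and DESeq2 called it higher. TotB was at 23 and 52.9 CPM against 9.41 and 7.80, and TotF at 23 and 19.8 against 18.8 and 14. All 3 lay above in both deficiency libraries, with a median fold of 1.98, and 1.15 without the second of them. TotB passed the filter on low counts only through the deficiency libraries, so the filter favoured its place above. Antimicrobial peptide genes had 3 of 9 above and 1 below.

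Markers of tissues outside the head were mostly near the floor of counts. Of 54 gut and salivary glue genes, 10 were tested, with 6 above and none below. Sgs7, a larval salivary glue gene, had 38 counts in the deficiency libraries and 1 in the 2-deletion libraries, a ratio of 53.7 (95% exact interval 9.07 to 2176). Jon65Ai, a gut protease gene, was at 13.3 and 19.8 CPM against 0 and 3.12. Sgs7 and Jon65Ai passed the filter on low counts only through the deficiency libraries. Hemocyte genes had a median of 0.08 over 10. Of 45 germline and testis genes, 6 were tested, with 4 below, none above and a median of -0.72 (-0.48 without the first deficiency library), and their summed level was 141 and 206 CPM against 299 and 261. betaTub85D, the testis beta-tubulin gene, was at 72.5 and 97.0 CPM against 145 and 130. dj, a sperm tail gene, was at 12.1 and 16.5 CPM against 30.8 and 27.3. The part of other tissues in the differences was not tested.

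Small RNA genes took 15.9% and 11.3% of counts in the deficiency libraries and 13.6% and 13.9% in the 2-deletion libraries. H/ACA box snoRNA genes had a median of 0.09 over 100 tested, with 22 above and 10 below, and other snoRNA genes a median of 0.31 over 91, with 28 above and 5 below, and 0.03 without the first deficiency library. The H/ACA median was -0.15 without the first deficiency library and 0.31 without the second. The median log2 difference of the second deficiency library over the first was -0.37 and -0.48 in these lists. The 15 tRNA genes had a median of -0.39 (-0.11 without the second deficiency library, and further below 0 without the first). Among them, tRNA:K5:29A was at 4.83 and 1.10 CPM against 24.8 and 30.4, though it belongs to a family of near-identical copies. It passed the filter on low counts only through the 2-deletion libraries. The X-chromosome noncoding RNAs of male dosage compensation overlapped between genotypes: roX1 was at 944 and 1051 CPM against 914 and 1116, and roX2 at 203 and 365 against 248 and 415.

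Genes known in the files only by a CG number were among those with the smallest p. CG13360 had the smallest p of all genes tested, at 16.9 and 13.2 CPM against 76.1 and 69.4 (log2 fold -2.27, SE 0.29, edgeR adjusted p = 0.17), and was called lower without small RNA genes, by DESeq2 and with the replicate block. CG3982 was at 35.0 and 47.4 CPM against 122 and 112, and CG5089 at 36.2 and 58.4 against 127 and 148. In the other direction, CG13335 was at 53.2 and 56.2 CPM against 7.70 and 13.3 (log2 fold 2.36, SE 0.34), and CG2070 at 23 and 40.8 against 0.855 and 3.90. DESeq2 and the replicate block each called CG13335 and CG2070 higher. CG2070 passed the filter on low counts only through the deficiency libraries, so the filter favoured a positive fold for it. CG31787 had no count in the deficiency libraries and 30 in the 2-deletion libraries, so it was at least 7.08-fold lower, against a floor of 3 counts over the deficiency libraries. Those of these genes that matched the gene table (all but CG13335) lay on several chromosome arms, and the share of tested genes with an unadjusted p under 0.05 was 5.56% higher and 6.03% lower on arm 2R, beside 4.68% and 4.16% on the X and 5.47% and 7.47% on 3R.

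**Figure D5:**
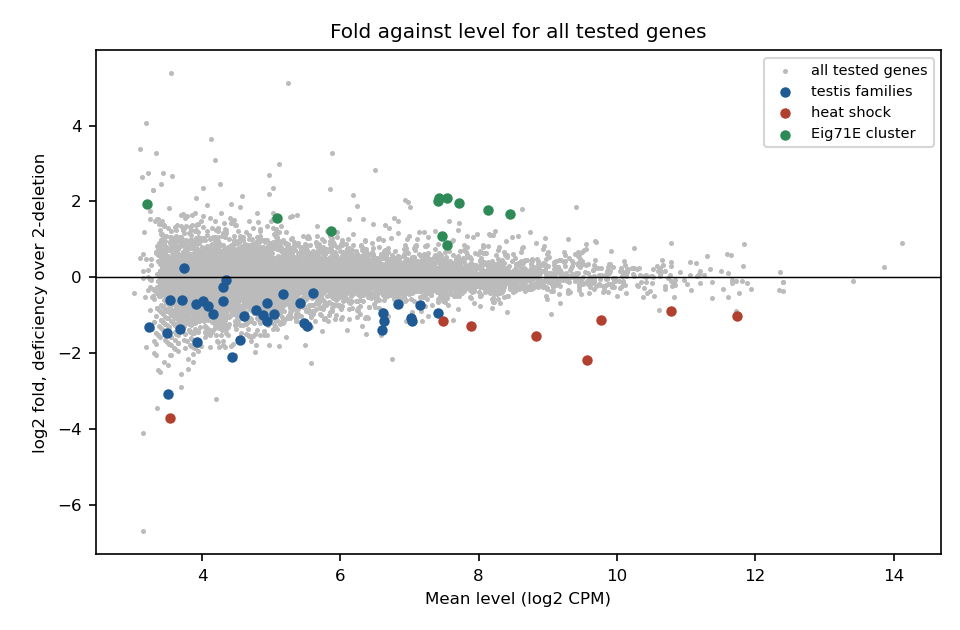
Each point is a tested gene, with its mean level in log2 CPM on the x axis and its log2 fold, deficiency over 2-deletion, on the y axis; coloured points are 8 heat shock genes, the 11 Eig71E genes and 36 testis-family genes, which were picked after their values were seen. The heat shock genes shown lie below 0, the Eig71E genes above it, and 35 of the 36 testis-family genes below it. Hsp70Bc and some testis-family genes passed the filter on low counts only through the 2-deletion libraries, and Eig71Ee only through the deficiency libraries.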

How the data were processed

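The authors deposited 1 table of raw counts per gene for each library; the submitters' processing notes name HTSeq and the dm3 build. Aligner, annotation, versions and strand setting are unknown here, so overlapping and antisense genes cannot be told apart. No column was left unmapped. Genes were kept by filterByExpr (minimum count 10, minimum total 15) and scaled by TMM. The 4 libraries were fitted with edgeR 4.0.16 (robust quasi-likelihood, genotype only) in R 4.3.3, with Benjamini-Hochberg adjustment over 8539 of 15141 genes. CPM are scaled to the TMM-adjusted total of tested genes. The common biological coefficient of variation was 18.3%. Alternatives used DESeq2 1.42.0 and limma 3.58.1. Counting intervals are 95% exact, and intervals and floors cover counting error only. With 2 libraries against 2, an exact permutation test of a single value cannot go below p = 0.333, so none is given. Replicates differed by more than sampling noise (chi-square per degree of freedom 6.08 and 3.09).

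The members, the 59 gene lists and the tests were chosen with earlier results of these data known, so lists are described by counts and medians and not tested. The rule for named genes (TBPH, the largest rises and falls among called genes, the leading called genes of each list and called neighbours) gave TBPH only. Symbols were matched to a Release 6 gene table for names and gene order (94.9% matched), with no coordinates since the builds differ. The fit was first tested on simulated counts with known changes.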

Additional observations from a re-analysis of the deposited data

How the results depend on the processing

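Calls were few and depended on the setting. None were made with DESeq2's size factors, without TMM, with a minimum count of 50, with voom, without robust estimation, at an adjusted p of 0.01 or with the spread of all 8 libraries. Leaving out small RNA genes gave 0 higher and 2 lower, no filter 26 and 42, and DESeq2 10 and 5. Replicate numbers paired nothing in the labels. Deviations of same-numbered libraries correlated at 0.0859, a single value that cannot tell whether those libraries were handled together. The replicate block called 13 higher and 6 lower. Leaving out 1 library gave 0 to 329 higher and 0 to 224 lower. The counts were 329 and 224 without the first deficiency library, 124 and 191 without the second, 0 and 0 without the first 2-deletion library, and 8 and 0 without the second. The lone library of a genotype is then assumed to vary like the other genotype. The cause was not tested.

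For genes next to TBPH in gene order, the median log2 fold was 0.0448 with a minimum count of 50 and ran from -0.0933 to 0.0537 without 1 library. The log2 fold of TBPH ran from -0.446 to 0.224 without 1 library. Signs also turned in that way for Hsp23 (-0.491 to 0.0211), Hsc70-4 (-0.203 to 0.0632), Ddc (-0.483 to 1.27), Map205 (-0.222 to 0.0135), Arc1 (-0.503 to 0.120), roX1 (-0.165 to 0.142) and roX2 (-0.710 to 0.211). With all libraries kept, 0 of 1526 values of named or followed genes turned sign. These settings refit the same counts, and the adjusted p of 0.01 left every fold unchanged, so this count says little about stability. List medians near 0 turned sign without 1 library for endoplasmic reticulum chaperones (-0.13 to 0.005), the ecdysone response (-0.08 to 0.05), ecdysteroid enzymes (-0.36 to 0.27), neuropeptides (-0.03 to 0.10) and genes studied with TDP-43 (0.0006 to 0.12). Medians ran from 0.03 to 0.22 for hemocyte and 0.33 to 0.53 for oxidative phosphorylation genes.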

Other observations

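Among genes low in the deficiency genotype were many of families expressed in testis: sperm leucyl aminopeptidases, Mst and cup genes, and testis proteasome subunits. They were gathered by name after the values were seen, so no test is given. Of 60 such genes in the files, 36 passed the filter on low counts. Of these 35 had a negative log2 fold, 27 lay below in both deficiency libraries and 0 above, and the median was -0.95. Some passed only through the 2-deletion libraries, so the filter favoured a negative fold for them. Among these were Tpl94D (CG31281), Mst84Dd, h-cup (CG6130), Rpt3R, Prosbeta5R1 and c-cup. The summed level of the 36 was 871 and 1240 CPM against 2153 and 1941. CG6372, now S-Lap1, was at 109 and 122 CPM in the deficiency libraries and 247 and 193 CPM in the 2-deletion libraries, a log2 fold of -0.93. CG32063, now S-Lap3, had a log2 fold of -1.07, and loopin-1 (CG4750), a sperm mitochondrial protein gene, had -1.16. For Mst84Dd, with 3 counts in the deficiency and 38 in the 2-deletion libraries, the 2-deletion level was 8.96 times as high (95% exact interval 2.84 to 45.4). Of the 36, s-cup (CG30044) alone was positive, at 0.25. Heads hold no testis, and the source of these counts was not tested.

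Fits that left out the first or the second deficiency library gave Hsp68 log2 folds of -1.77 and -2.73. The values were -1.18 and -2.02 for DnaJ-1, -1.12 and -1.10 for Hsp26 and -1.18 and -1.13 for Hsf. They were 1.13 and 0.57 for Mhc, 1.52 and 0.86 for wupA, 3.27 and 1.75 for ninaE and 1.46 and 2.34 for Eig71Eb. These genes were picked after their values were seen, and other genes that turned sign without 1 library are given above. Both fits used the same 2-deletion libraries, and each assumed that the lone deficiency library varied like them.

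Further lists are set beside the shares over all tested genes, 21.2% above and 22.1% below in both deficiency libraries. Cytochrome P450 genes had a median of 0.28 over 34, with 11 above and 2 below, and immune recognition genes 0.23 over 23, with 9 above and 1 below. Proteasome genes had 0.19 over 36, with 16 above and 4 below, and autophagy genes 0.11 over 28, with 12 above and 4 below. Neuronal RNA-binding genes had -0.10 over 30, with 6 above and 8 below, and cell cycle and neuroblast genes -0.13 over 31, with 2 above and 5 below. Glutathione transferase and oxidative stress genes had 0.08 over 25, with 7 above and 4 below. Long noncoding RNA genes had -0.04 over 36, with 8 above and 8 below. Leaving out 1 library moved these medians to 0.12 to 0.39 for cytochrome P450, 0.07 to 0.30 for immune recognition, 0.09 to 0.41 for the proteasome, 0.09 to 0.14 for autophagy, -0.09 to -0.05 for neuronal RNA-binding, -0.18 to 0.02 for cell cycle, 0.04 to 0.17 for oxidative stress and -0.09 to 0.09 for long noncoding RNA genes.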
